A study of Homo sapiens with 14 samples.

Results

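The GIMAP genes encode GTPases of immunity-associated proteins, a family of small GTP-binding proteins that lie in one cluster on chromosome 7. The 7 human genes GIMAP1, GIMAP2, GIMAP4, GIMAP5, GIMAP6, GIMAP7 and GIMAP8 were taken by symbol from the deposited RNA-seq table, 7 of 35718 gene symbols. No further row of the table has a symbol that starts with GIMAP. The family was singled out with the values of these 6 groups known, so the levels and differences below are a description.

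All groups are K562 cells, an established human line from a chronic myeloid leukaemia, that carry dCas9-KRAB. This is a Cas9 without nuclease activity fused to a repressor domain, which lowers transcription where a guide RNA directs it. The knockdowns carried guides against TASOR (2 libraries listed), TASOR2 (3 listed), MPP8 (2 listed) or PPHLN1, which encodes Periphilin (2 listed), a different guide in each library of a knockdown. The controls were untransduced cells (2 libraries) and cells with sgAAVS1, a guide against the AAVS1 site (3 libraries). RNA of the transduced cells was taken on day 7 after transduction. TASOR, MPP8 and Periphilin form HUSH, a complex that silences transposons and some genes through chromatin, and TASOR2 is known to take the place of TASOR in the related complex HUSH2, which also holds MPP8 and Periphilin. The study asked how the transcriptome changes when subunits of the complexes are lost. The table used here holds group means, so no value carries an SD, an n or a p-value, and the spread between guides or libraries could not be measured.

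GIMAP proteins share a G domain of the AIG1 type and are best known from lymphocytes, where they are tied to cell survival and development. In rodents, loss of GIMAP5 causes a lack of T cells. GIMAP2 sits on lipid droplets through hydrophobic segments at its end, and GIMAP7 can stimulate its GTP hydrolysis. K562 cells are of erythroid and myeloid character and are not lymphocytes.

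In hg38 the cluster covers 299 kb, and all 7 genes are annotated as protein coding. From low to high coordinates the order is GIMAP8, GIMAP7, GIMAP4, GIMAP6, GIMAP2, GIMAP1 and GIMAP5. GIMAP2 lies at chr7:150685697-150693641 on the plus strand and GIMAP6 at chr7:150625375-150632648 on the minus strand. The deposited models of GIMAP1 (chr7:150716557-150724284) and GIMAP5 (chr7:150716557-150750033) start at the same base on the plus strand, and the GIMAP5 model holds 100% of that of GIMAP1. How reads in the shared stretch were assigned is not stated in these sources.

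The starts of 3 of the genes are shown because the GIMAP2 transcript rose in these cells and because a motif of interferon-stimulated genes is present in GIMAP2 and GIMAP7 but not in GIMAP6. The motif is the core of the interferon-stimulated response element (ISRE), GAAANNGAAA, which factors of the IRF family bind. Each run is the RefSeq promoter sequence of GRCh38.p14, from 250 bases before to 30 bases after the annotated start, 5′ to 3′ on the gene's strand. Capitals mark a match to the ISRE core, read here as its reverse complement. The windows are chr7:150685456-150685735 (plus strand) for GIMAP2, chr7:150514622-150514901 (plus strand) for GIMAP7 and chr7:150632356-150632635 (minus strand) for GIMAP6.
GIMAP2: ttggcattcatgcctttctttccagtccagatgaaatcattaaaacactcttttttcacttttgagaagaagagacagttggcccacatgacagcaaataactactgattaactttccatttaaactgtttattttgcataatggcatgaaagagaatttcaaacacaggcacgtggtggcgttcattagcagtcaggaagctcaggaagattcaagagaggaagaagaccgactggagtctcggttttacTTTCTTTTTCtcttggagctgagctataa
GIMAP7: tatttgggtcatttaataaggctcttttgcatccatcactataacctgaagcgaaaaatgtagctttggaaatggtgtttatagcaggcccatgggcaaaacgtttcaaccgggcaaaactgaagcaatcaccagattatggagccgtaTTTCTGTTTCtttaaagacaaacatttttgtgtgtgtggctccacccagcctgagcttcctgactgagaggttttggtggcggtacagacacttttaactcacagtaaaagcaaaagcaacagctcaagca
GIMAP6: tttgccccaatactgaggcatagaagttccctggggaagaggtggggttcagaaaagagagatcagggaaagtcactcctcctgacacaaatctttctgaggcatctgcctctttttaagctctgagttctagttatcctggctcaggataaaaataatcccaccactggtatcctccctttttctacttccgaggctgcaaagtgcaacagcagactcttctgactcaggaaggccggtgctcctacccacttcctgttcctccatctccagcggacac

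In GIMAP2 the match covers bases 2 to 11 counted from the RefSeq start (chr7:150685707-150685716). In GIMAP7 it covers bases -101 to -92 from the start (chr7:150514771-150514780). Over windows of 300 bases, from 250 before to 50 after the start, searched on both strands, 2 of the 7 GIMAP genes held the core, against 1255 of 35116 RefSeq windows (3.57%). Of a list of 47 interferon-stimulated genes, 37 had a window, and 25 of those (67.6%) held the core. The gamma-activated site TTCNNNGAA was found in 0 of 7 GIMAP windows, against 2689 of all windows (7.66%) and 13 of the 37 listed genes (35.1%), so no match of one motif overlapped the other in a GIMAP window. A match is a run of letters and not a shown binding site, and GIMAP7, which holds one, had no reads in any group.

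Across the cluster, RNA in K562 cells came mostly from GIMAP2. Levels are the authors' group means of log2 RPM, reads scaled to a common library size. GIMAP2 was above 0 on that scale in all 6 groups, GIMAP6 lay near 0 or below, and GIMAP8, GIMAP1 and GIMAP5 had at most a few reads. GIMAP4, linked to T cell death, and GIMAP7 had 0 reads in all 6 groups. A group with 0 reads still allows 3 counts over its libraries, a log2 mean of up to -2.21 in TASOR, -1.97 in TASOR2, -1.98 in MPP8 and -1.99 in PPHLN1, against -2.30 in untransduced cells and -2.63 in sgAAVS1.

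**Figure D1:**
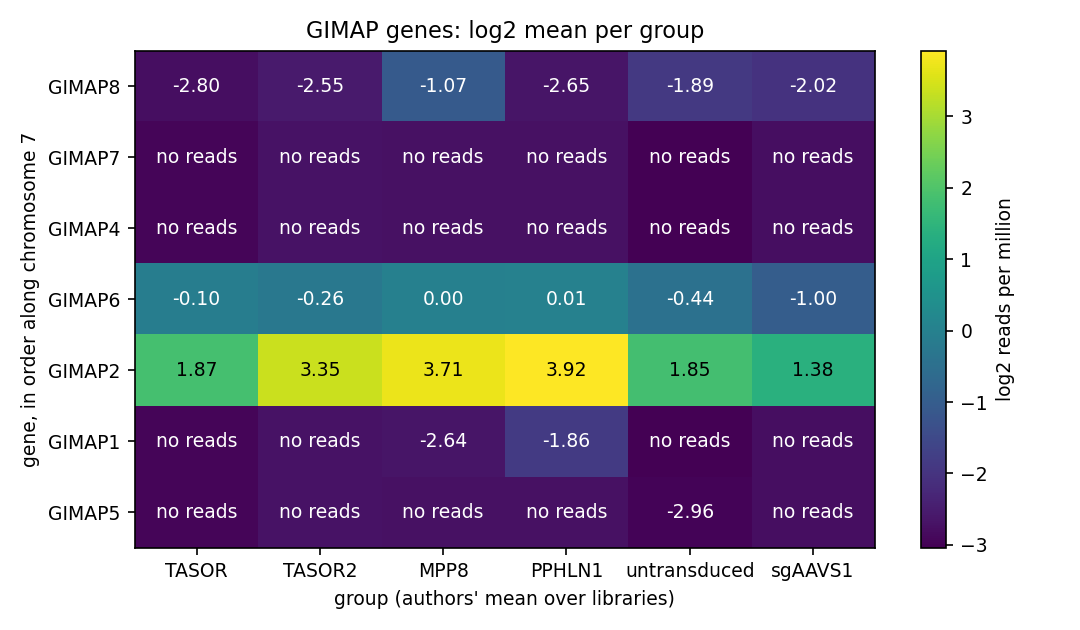
Log2 mean of RPM for the 7 GIMAP genes (rows, in order along chromosome 7) in the 6 groups (columns), with colour for the value and the number printed in each cell. GIMAP2 stands above all other rows, from 1.38 in sgAAVS1 to 3.92 in PPHLN1, and cells without a read say so.

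GIMAP2 had a log2 mean of 1.87 in TASOR, 3.35 in TASOR2, 3.71 in MPP8 and 3.92 in PPHLN1, against 1.85 in untransduced cells and 1.38 in sgAAVS1. The TASOR2, MPP8 and PPHLN1 groups lay well above both controls, while the TASOR group lay beside the untransduced cells. As geometric means per library these are 25.5 reads in TASOR, 59.8 in TASOR2, 77.8 in MPP8 and 90.2 in PPHLN1, against 26.7 in untransduced cells and 16.1 in sgAAVS1. More cells with the transcript and more transcript per cell cannot be told apart in such bulk RNA.

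Each mean is one of log2 whole reads, so the product of the reads over the libraries of a group could be recovered, though the single libraries could not. For GIMAP2 the product was 648 in TASOR, 3577 in TASOR2, 6048 in MPP8 and 8140 in PPHLN1, against 713 in untransduced cells over 2 libraries and 4199 in sgAAVS1 over 3 libraries. The most even whole numbers with these products are 24 and 27 reads in TASOR, 49 and 73 in TASOR2, 72 and 84 in MPP8, and 74 and 110 in PPHLN1, against 23 and 31 in untransduced cells and 13, 17 and 19 in sgAAVS1.

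Other whole numbers give the same products. For a library to come down to 31 reads, the highest count in the even split of the controls, the other library would have to hold at least 511 reads against 7 in TASOR2, 216 against 28 in MPP8 or 370 against 22 in PPHLN1. Those splits are 73.0-fold, 7.71-fold and 16.8-fold between guides of one knockdown, and neither they nor the even ones can be chosen from the deposited means. For untransduced cells the alternative to 23 and 31 is 1 and 713 reads, and for sgAAVS1 the next most even split is 1, 19 and 221 reads. Whether single libraries of the groups overlap therefore cannot be told. The depth of single libraries is not known, so these are reads and not levels.

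For the comparison of groups, a call of higher or lower was made where the log2 means of a gene differed by at least 1, the larger mean was above 0 and the 95% counting interval of the difference did not include 0. The value after ± is the reach of that interval to either side, which covers Poisson error of the reads and leaves out spread between libraries, guides or cultures. A gene entered when at least 1 of its 6 means was above 0, which 16433 genes did. Of the GIMAP genes, 2 of 7 entered, GIMAP2 through all 6 of its means and GIMAP6 through its PPHLN1 mean of 0.01 alone, the MPP8 mean of GIMAP6 falling just short of 0.

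GIMAP2 rose in the TASOR2, MPP8 and PPHLN1 knockdowns relative to sgAAVS1 and was not called in the TASOR knockdown. In TASOR2 cells it was higher by 1.97 ± 0.48, which is 3.93-fold, and it was 1 of 2 entered GIMAP genes called higher, where 2.26% of all genes were. In MPP8 cells the difference was 2.34 ± 0.47 (5.05-fold), again the 1 called GIMAP gene, against 1.65% of all genes. In PPHLN1 cells it was 2.54 ± 0.46 (5.82-fold), with 2.88% of all genes called higher. These 3 differences share the sgAAVS1 libraries, as do those of TASOR and of untransduced cells. No GIMAP gene was called lower than in sgAAVS1, where calls of lower came to 0.341% of all genes in TASOR, 2.03% in TASOR2, 0.316% in MPP8, 0.615% in PPHLN1 and 0.237% in untransduced cells.

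In TASOR cells GIMAP2 differed from sgAAVS1 by 0.49 ± 0.57, and 0 of 2 GIMAP genes were called, with 1.95% of all genes called higher. Untransduced cells differed from sgAAVS1 by a like amount, 0.47 ± 0.56, and again 0 of 2 were called, with 1.38% of all genes called higher. Both intervals include 0 and reach just past the threshold of 1. The median gene was itself shifted from sgAAVS1 by 0.16 in TASOR, 0.07 in TASOR2, 0.12 in MPP8, 0.17 in PPHLN1 and 0.05 in untransduced cells. Relative to it, GIMAP2 differed by 0.33 in TASOR, 1.91 in TASOR2, 2.21 in MPP8, 2.37 in PPHLN1 and 0.42 in untransduced cells.

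Untransduced cells gave the same calls as sgAAVS1 with smaller differences. GIMAP2 was higher than in untransduced cells by 1.50 ± 0.47 in TASOR2, 1.86 ± 0.45 in MPP8 and 2.07 ± 0.44 in PPHLN1. All genes called higher in these comparisons came to 1.37% in TASOR2, 1.25% in MPP8 and 1.56% in PPHLN1. In TASOR cells GIMAP2 differed from untransduced cells by 0.02 ± 0.55 and was not called, with 1.28% of all genes called higher. No GIMAP gene was called lower than in untransduced cells, where calls of lower came to 0.84% of all genes in TASOR, 3.26% in TASOR2, 1.02% in MPP8 and 0.822% in PPHLN1.

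**Figure D2:**
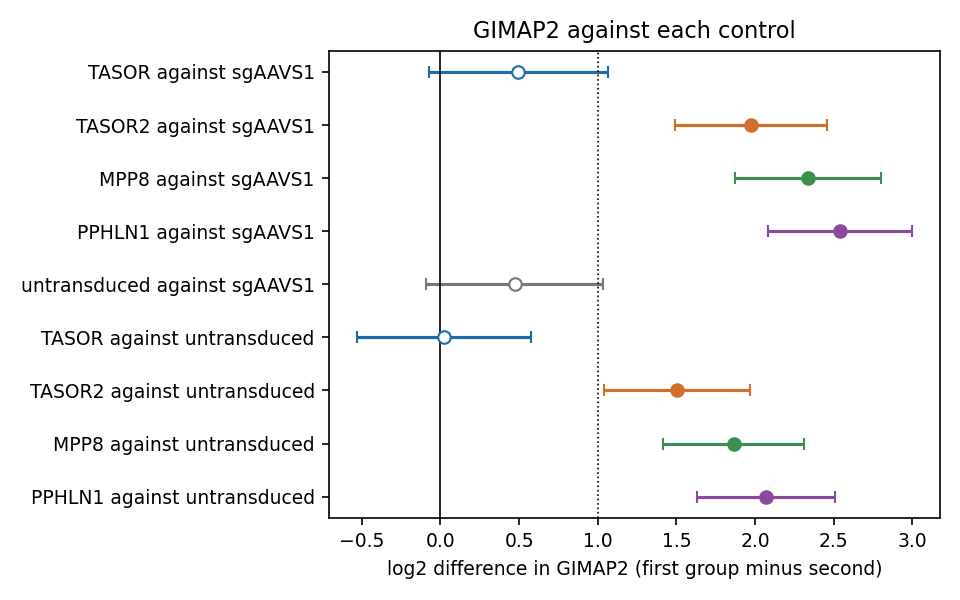
Log2 difference in GIMAP2 (x axis) for each comparison with a control (y axis), as points with the 95% counting interval; filled points met the rule of size and open points did not, and the dotted line marks a difference of 1. The 6 filled points are TASOR2, MPP8 and PPHLN1 against each control, from 1.50 to 2.54, and the open points of TASOR and untransduced cells have intervals that include 0.

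The knockdowns were also compared with each other, without use of a control. The 3 differences from TASOR cells share the TASOR libraries. GIMAP2 was higher than in TASOR cells by 1.48 ± 0.47 in TASOR2 cells (2.79-fold), by 1.84 ± 0.46 in MPP8 cells (3.58-fold) and by 2.05 ± 0.45 in PPHLN1 cells (4.13-fold). All genes called higher than in TASOR cells came to 1.39% in TASOR2, 0.803% in MPP8 and 1.38% in PPHLN1, and those called lower, with no GIMAP gene among them, to 5.23% in TASOR2, 1.06% in MPP8 and 0.961% in PPHLN1. The 3 high groups lay closer together. MPP8 cells exceeded TASOR2 cells by 0.36 ± 0.34 and PPHLN1 cells exceeded TASOR2 cells by 0.57 ± 0.33, intervals without 0 but below the size required. PPHLN1 and MPP8 cells differed by 0.21 ± 0.31. The GIMAP genes called higher were 0 of 2 in each of these comparisons, with 3.96% of all genes called higher in MPP8 against TASOR2, 5.07% in PPHLN1 against TASOR2 and 0.864% in PPHLN1 against MPP8. None was called lower, as 1.52%, 1.42% and 0.59% of all genes were in the same order.

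The order of GIMAP2 levels was thus PPHLN1, MPP8, TASOR2, TASOR, untransduced and sgAAVS1, from high to low. Neighbours in that order differed by more than counting error at the step between TASOR2 and TASOR, by 1.48 ± 0.47, and narrowly between MPP8 and TASOR2. In rank by size among the genes called higher than in sgAAVS1, GIMAP2 was 64 of 372 in TASOR2, 28 of 271 in MPP8 and 42 of 473 in PPHLN1. Among those called higher than in untransduced cells it was 110 of 225 in TASOR2, 48 of 206 in MPP8 and 54 of 256 in PPHLN1.

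The GIMAP2 transcript is low in GC, at 40.4% against a median of 48.9% over the genes with a value. Differences from sgAAVS1 moved with transcript GC, in opposite directions between groups. The Spearman correlation of difference and GC was -0.70 in TASOR2 and -0.54 in untransduced cells. In TASOR it was 0.18, in MPP8 0.30 and in PPHLN1 0.34. At the GC content of GIMAP2 the running trend of all genes was 0.11 in TASOR, 0.28 in TASOR2, 0.10 in MPP8, 0.14 in PPHLN1 and 0.09 in untransduced cells. With the trend taken off, a step added after the data were seen, GIMAP2 differed by 0.38 in TASOR, 1.70 in TASOR2, 2.23 in MPP8, 2.40 in PPHLN1 and 0.38 in untransduced cells, with the same calls. The trend was not taken off the comparisons between knockdowns.

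GIMAP6, which takes part in autophagy, was the other GIMAP gene with reads in every group. Its log2 means were -0.10 in TASOR, -0.26 in TASOR2, 0.00 in MPP8 and 0.01 in PPHLN1, against -0.44 in untransduced cells and -1.0 in sgAAVS1. The products of reads were 42 in TASOR, 24 in TASOR2, 35 in MPP8 and 36 in PPHLN1, against 30 in untransduced cells and 30 over the 3 libraries of sgAAVS1. The most even splits are 6 and 7 reads in TASOR, 4 and 6 in TASOR2, 5 and 7 in MPP8 and 6 and 6 in PPHLN1, against 5 and 6 in untransduced cells and 2, 3 and 5 in sgAAVS1.

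GIMAP6 differed from sgAAVS1 by 0.90 ± 1.21 in TASOR, 0.74 ± 1.29 in TASOR2, 0.99 ± 1.24 in MPP8, 1.01 ± 1.23 in PPHLN1 and 0.56 ± 1.26 in untransduced cells. All 5 intervals include 0, so a difference of the size required could be neither called nor set aside at this depth. Relative to untransduced cells the differences were smaller, at 0.34 in TASOR, 0.18 in TASOR2, 0.43 in MPP8 and 0.44 in PPHLN1, and with a pseudocount of 1 those from sgAAVS1 were 0.37 in TASOR, 0.29 in TASOR2, 0.41 in MPP8 and 0.42 in PPHLN1.

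Per kb of exon in GENCODE 29, GIMAP2 stood at 1.75 RPM in TASOR, 4.87 in TASOR2, 6.26 in MPP8 and 7.21 in PPHLN1, against 1.72 in untransduced cells and 1.24 in sgAAVS1. On the same scale GIMAP6 stood at 0.238 in TASOR, 0.214 in TASOR2, 0.255 in MPP8 and 0.257 in PPHLN1, against 0.189 in untransduced cells and 0.128 in sgAAVS1. GIMAP2 was thus above GIMAP6 by length as well as by reads in every group. The sources used here do not give whether reads within introns were counted, so the exon length may not be the length that was counted.

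GIMAP8, a family member with several G domains, was read 1 or a few times. TASOR and TASOR2 had 1 read in each of 2 libraries. MPP8 had a product of 8 (2 and 4 reads, or 1 and 8) and a log2 mean of -1.07, and PPHLN1 had 1 read in 1 library. Untransduced cells had a product of 4 over 2 libraries, and of the 3 sgAAVS1 libraries 1 had 0 reads and the other two a product of 4. The MPP8 value was the highest of the 6, on this handful of reads, and GIMAP8 did not enter the comparison.

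GIMAP1, known from the development of B and T cells in mice, had 1 read in 1 MPP8 library and 3 reads in 1 PPHLN1 library. It had 0 reads in TASOR and TASOR2 and in both controls. GIMAP5, a protein of lysosomes, had 1 read, in an untransduced library. Neither was near the level at which genes entered. The reads listed for GIMAP1 were not listed for GIMAP5 as well, although the GIMAP5 model holds that of GIMAP1, so the assignment between the 2 genes is uncertain.

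The genes around the cluster were examined to see whether GIMAP2 moved with them. Within 500 kb of either end, 35 other genes are in the table and 24 entered. Called higher than in sgAAVS1 were 0 of 24 in TASOR and in TASOR2, 1 in MPP8, 1 in PPHLN1 and 0 in untransduced cells. The median difference of the 24 was 0.20 in TASOR, -0.08 in TASOR2, 0.15 in MPP8, 0.18 in PPHLN1 and -0.01 in untransduced cells, close to the shift of the median gene, while GIMAP2 differed by 1.97 or more in TASOR2, MPP8 and PPHLN1. Over all 15 comparisons, in either direction, 4 of the 24 neighbours were called, where 16.2% of all genes were, a share close to that of the neighbours.

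The nearest of them is LINC00996, a long noncoding RNA gene 2.49 kb before GIMAP8. Its log2 means were -0.21 in TASOR, -0.26 in TASOR2, 0.13 in MPP8 and 0.73 in PPHLN1, against -1.89 in untransduced cells and -0.47 in sgAAVS1. It was higher in PPHLN1 than in sgAAVS1, by 1.20 ± 1.0, a call lost with quantile normalization, a higher filter or a pseudocount. Relative to untransduced cells it was higher in MPP8 by 2.02 ± 1.62 and in PPHLN1 by 2.62 ± 1.55. The highest 2 means were those of PPHLN1 and MPP8, but the intervals of all differences between knockdowns include 0. From TASOR, MPP8 differed by 0.34 ± 1.13, PPHLN1 by 0.94 ± 1.03 and TASOR2 by -0.05 ± 1.22. Untransduced cells differed from sgAAVS1 by -1.42 ± 1.61, an interval that includes 0.

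RARRES2, which encodes the chemoattractant chemerin, was higher in MPP8 than in sgAAVS1 by 2.65 ± 1.83 and than in TASOR by 1.52 ± 1.52, and in PPHLN1 it fell by 2.09 ± 1.87 relative to MPP8. Its mean of 0.02 in MPP8 stood against -0.32 in untransduced cells and -2.63 in sgAAVS1, with 2.31 ± 1.83 between untransduced cells and sgAAVS1, and its call in MPP8 against sgAAVS1 was lost with median centring, a higher filter or a pseudocount. With median centring the difference was 2.53, and the call was lost because the mean fell below 0. RP4-584D14.5 was lower than in untransduced cells in TASOR2 (-1.07 ± 1.06), MPP8 (-1.21 ± 1.10) and PPHLN1 (-1.38 ± 1.14). Relative to sgAAVS1 it was not called, at -0.36 ± 1.10 in TASOR2, -0.51 ± 1.14 in MPP8 and -0.68 ± 1.18 in PPHLN1. Untransduced cells differed from sgAAVS1 in this gene by 0.71 ± 0.84. RP4-548D19.3 was higher in PPHLN1 than in TASOR2 by 1.05 ± 0.52.

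On the other side the nearest entered gene is KCNH2, a potassium channel gene 194.9 kb beyond the cluster. Its log2 means ranged from 8.71 to 8.94 in the knockdowns, against 8.58 in untransduced cells and 8.71 in sgAAVS1, and it was called in none of the comparisons. GIMAP2 is the gene of this stretch that was called higher in each of TASOR2, MPP8 and PPHLN1 against both controls. Measured from the GIMAP2 start, LINC00996 starts at -252.043 kb (before it) and KCNH2 at 259.264 kb. Of the genes that entered, only GIMAP6, at -60.322 kb, starts nearer to GIMAP2. The 24 neighbours therefore do not cover the immediate surroundings of GIMAP2, and whether it moved with those was not tested.

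**Figure D3:**
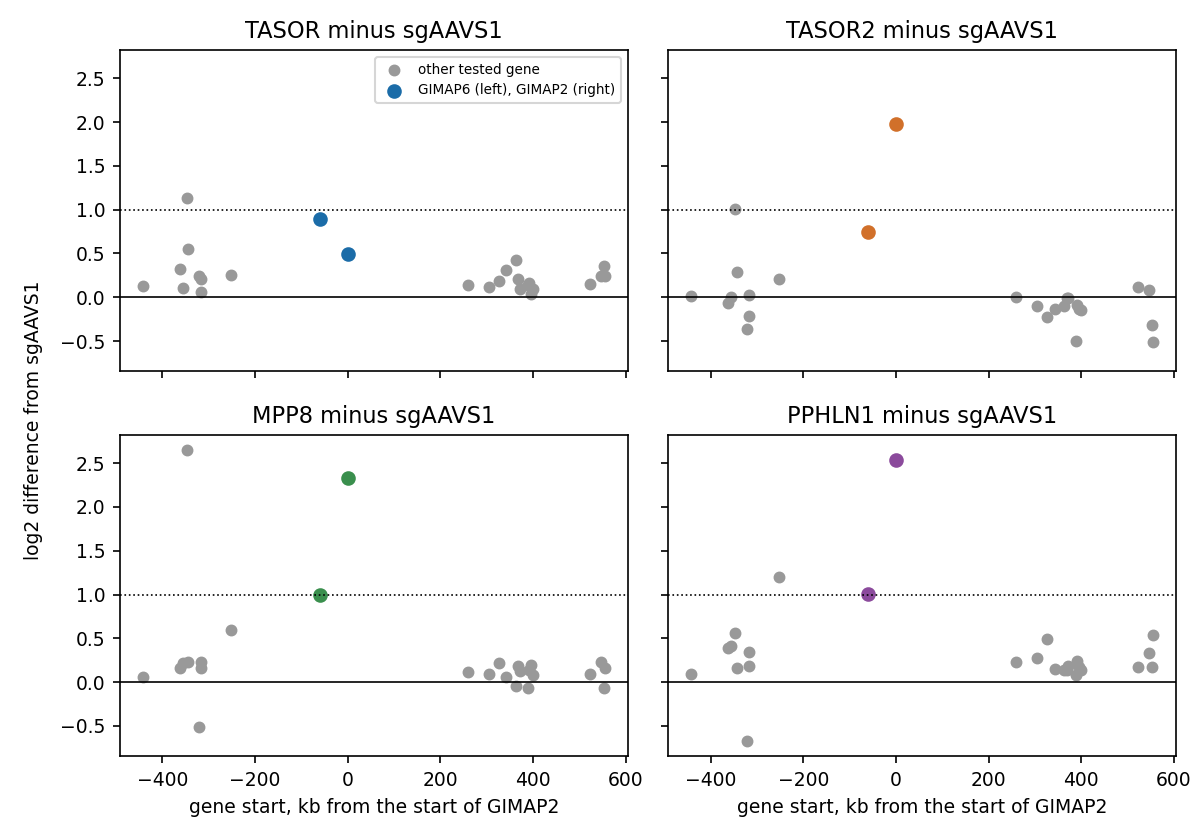
Log2 difference from sgAAVS1 (y axis) against the distance of each gene's start from that of GIMAP2 in kb (x axis), with a panel for each knockdown, coloured points for GIMAP6 and GIMAP2, grey points for the other genes that entered within 500 kb of the cluster, and a dotted line at 1. GIMAP2 lies at 0.49 in TASOR, 1.97 in TASOR2, 2.34 in MPP8 and 2.54 in PPHLN1, while most grey points lie near 0; counting intervals are not drawn, and the grey points at or above 1 are genes with few reads.

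Interferon-stimulated genes were set beside GIMAP2. A list of 47 genes known to be induced by interferon was taken, of which 38 entered. It was chosen, as were the lists below, with earlier results of these data known, so the counts are a description. Called higher than in sgAAVS1 were 1 of 38 in TASOR, 21 in TASOR2, 17 in MPP8, 20 in PPHLN1 and 1 in untransduced cells, and none was called lower. Of all genes, 1.95% were called higher in TASOR, 2.26% in TASOR2, 1.65% in MPP8, 2.88% in PPHLN1 and 1.38% in untransduced cells. The 1 gene of the list called in TASOR and in untransduced cells was TNFSF10, the death ligand TRAIL, named after its values were seen. It differed by 1.77 ± 0.88 in TASOR and 1.37 ± 0.91 in untransduced cells. The list's median difference was 0.18 in TASOR, 1.10 in TASOR2, 0.93 in MPP8, 1.17 in PPHLN1 and 0.15 in untransduced cells. Relative to TASOR cells, 16 of 38 were higher in TASOR2, 12 in MPP8 and 16 in PPHLN1, where 1.39%, 0.803% and 1.38% of all genes were.

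GIMAP2 lay above the list's median in every comparison with sgAAVS1. Of the 38 genes, those with a larger difference than GIMAP2 were 11 in TASOR2, 3 in MPP8 and 5 in PPHLN1. Relative to untransduced cells they were 13 in TASOR2, 9 in MPP8 and 9 in PPHLN1. SAMD9, an antiviral protein, differed from sgAAVS1 by 0.90 ± 0.28 in TASOR, 2.91 ± 0.24 in TASOR2, 2.65 ± 0.24 in MPP8, 2.86 ± 0.24 in PPHLN1 and -0.16 ± 0.33 in untransduced cells. IFIH1, the sensor of double-stranded RNA also known as MDA5, differed by 0.20 ± 0.39 in TASOR, 2.75 ± 0.29 in TASOR2, 2.40 ± 0.30 in MPP8, 2.76 ± 0.29 in PPHLN1 and 0.52 ± 0.36 in untransduced cells. Both were called higher than in sgAAVS1 in TASOR2, MPP8 and PPHLN1. In TASOR the SAMD9 interval lay above 0, and relative to untransduced cells SAMD9 was called higher there, by 1.06 ± 0.31, whereas GIMAP2 differed by 0.02 ± 0.55.

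In PPHLN1 cells the other genes at the top of the list were MX1 (2.98 ± 1.42), XAF1 (2.92 ± 1.63), SP110 (2.55 ± 0.26) and HERC6 (2.53 ± 1.04), all called higher than in sgAAVS1. SP110 is a nuclear body protein, MX1 an antiviral GTPase, XAF1 a factor that promotes cell death and HERC6 a ubiquitin ligase. MX1, XAF1 and HERC6 have few reads, which the wide intervals show, and GIMAP2 was measured more closely than these 3.

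**Figure D4:**
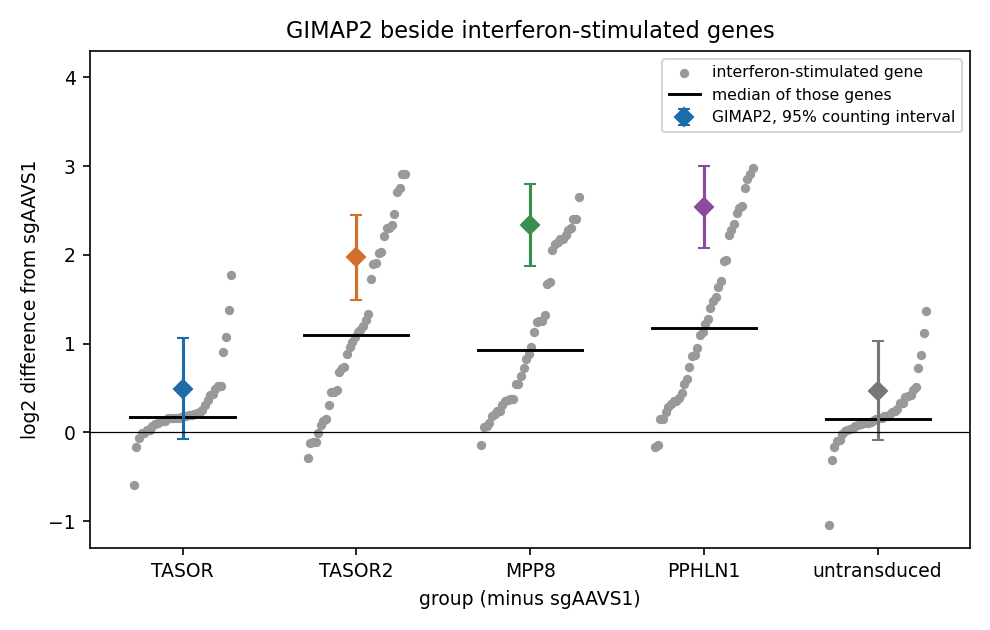
Log2 difference from sgAAVS1 (y axis) for the 38 interferon-stimulated genes that entered (grey points, sorted by value), their median (black line) and GIMAP2 (diamond with its 95% counting interval) in the 4 knockdowns and untransduced cells (x axis). In TASOR2, MPP8 and PPHLN1 the medians are 1.10, 0.93 and 1.17 and GIMAP2 lies above each of them, and in TASOR and untransduced cells the points cluster near 0 and the GIMAP2 interval includes 0.

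Other GTPases induced by interferon were counted in the same way. Of 12 such genes in the table, from the MX, GBP and IRG families, 6 entered, and 0 were called higher than in sgAAVS1 in TASOR, 2 in TASOR2, 1 in MPP8, 2 in PPHLN1 and 0 in untransduced cells. Of all genes, 2.26% were called higher in TASOR2, 1.65% in MPP8 and 2.88% in PPHLN1. MX1 was called in TASOR2, MPP8 and PPHLN1 and is also on the list above. In TASOR, where none was called, the largest difference of the 6 from sgAAVS1 was 1.07. MX2 was higher by 1.13 ± 0.74 in TASOR2 and by 1.10 ± 0.74 in PPHLN1, with 0.21 ± 0.86 in MPP8. The guanylate-binding protein GBP2 differed by 0.53 ± 0.23 in TASOR2, 0.52 ± 0.23 in MPP8 and 0.57 ± 0.23 in PPHLN1 and was not called. Relative to TASOR cells, 1 of the 6 was higher in TASOR2, 0 in MPP8 and 1 in PPHLN1. Of all genes, 1.39%, 0.803% and 1.38% were, in the same order.

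The septins, GTPases of the cytoskeleton with a G domain related to that of the GIMAP proteins, showed 0 genes higher than in sgAAVS1 of 9 that entered in each of the 5 groups. Of all genes, from 1.38% to 2.88% were called higher in those groups. SEPT4 was lower in TASOR2, by -1.85 ± 1.38, where 2.03% of all genes were lower. Relative to untransduced cells, 1 septin was lower in TASOR2 and 1 in MPP8, where 3.26% and 1.02% of all genes were. Relative to TASOR, 1 was lower in TASOR2 and 1 in MPP8, where 5.23% and 1.06% were. In PPHLN1, 1 was higher than in TASOR2 and 1 higher than in MPP8, where 5.07% and 0.864% were. Of the BCL2 family, the cell death regulators that GIMAP proteins have been tied to in lymphocytes, 12 genes entered and 0 were called in either direction against sgAAVS1. The largest BCL2 family difference from sgAAVS1 in PPHLN1 was that of BIK, at 0.66 ± 0.43. Between knockdowns, 1 of the 12 was lower in TASOR2 than in TASOR, where 5.23% of all genes were. Relative to TASOR2, 1 was higher in MPP8 and 1 in PPHLN1, where 3.96% and 5.07% of all genes were.

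Markers of cells in which GIMAP genes are best known were read next. Of 40 lymphoid markers, 12 had 0 reads in all 6 groups, among them CD8A, CD28, BCL11B and MS4A1. Their summed level was 330 RPM in TASOR, 249 in TASOR2, 297 in MPP8 and 329 in PPHLN1, against 265 in untransduced cells and 262 in sgAAVS1. Most of the sum came from 3 genes, LEF1, TCF7 and RAG1, which together stood at 238 RPM in TASOR, 183 in TASOR2, 196 in MPP8 and 237 in PPHLN1, against 193 in untransduced cells and 177 in sgAAVS1.

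Of the 15 lymphoid markers that entered, those called higher than in sgAAVS1 were 0 in TASOR, TASOR2 and MPP8 and 2 in PPHLN1, CD79A (1.70 ± 1.21) and RAG1 (1.06 ± 0.16). Of all genes, 1.95% were called higher in TASOR, 2.26% in TASOR2, 1.65% in MPP8 and 2.88% in PPHLN1. The 1 marker called lower was PRF1 in TASOR2, where 2.03% of all genes were. Its log2 mean was 2.62 in TASOR2 against 3.98 in sgAAVS1. Relative to untransduced cells, 3 were higher in MPP8 (CD3E, CD3G and ZAP70), 1 was lower in MPP8 (PAX5) and 2 were higher in PPHLN1 (ZAP70 and CD79A), where 1.25%, 1.02% and 1.56% of all genes were. Relative to TASOR2, 4 were higher in MPP8 (CD3E, CD7, ZAP70 and PRF1), 1 was lower in MPP8 (PAX5) and 5 were higher in PPHLN1 (CD7, ZAP70, RAG1, CD79A and PRF1), where 3.96%, 1.52% and 5.07% of all genes were. Relative to TASOR, 2 were lower in TASOR2, CD7 (-1.40 ± 1.37) and PRF1 (-1.41 ± 0.38), where 5.23% of all genes were. CD79A was higher in PPHLN1 than in MPP8 by 1.49 ± 1.34, where 0.864% of all genes were. The markers other than CD79A and RAG1 were named after their values were seen. The part of these markers in the GIMAP2 difference was not tested. RAG1 differed by 0.94 ± 0.16 in TASOR, 0.03 ± 0.20 in TASOR2 and 0.72 ± 0.17 in MPP8. Of 12 endothelial markers, CDH5 and EMCN had 0 reads in all 6 groups. The 4 that entered were PECAM1, ESAM, FLT1 and TIE1, and none was called. The sum of the 12 ran from 82.0 to 89.6 RPM in the knockdowns, against 79.4 in untransduced cells and 77.6 in sgAAVS1. Most of it came from PECAM1. The PECAM1 log2 means ran from 6.05 to 6.24 in the knockdowns, against 6.03 in untransduced cells and 6.01 in sgAAVS1. All 16 markers of K562 cells had reads in every group, with sums from 2734 to 2975 RPM in the knockdowns, against 2474 in untransduced cells and 2573 in sgAAVS1. One of them, the red cell anion exchanger gene SLC4A1, was higher in PPHLN1 by 1.17 ± 0.16.

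Lastly, the genes whose profile over the 6 group means lay nearest to that of GIMAP2 were taken, each profile centred on its own mean and likeness given as the root mean square difference. Among 15657 genes the nearest 5 were IFI6 (0.15), PSMB9 (0.16), SP110 (0.21), ZNF528 (0.22) and APOL3 (0.23), in log2 units. IFI6 is a mitochondrial protein induced by interferon, PSMB9 a subunit of the immunoproteasome, ZNF528 a zinc finger protein and APOL3 an apolipoprotein L. IFI6, PSMB9 and SP110 are on the interferon list, so the set and the list share genes.

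IFI6 differed from sgAAVS1 by 0.53 in TASOR, 2.03 in TASOR2, 2.18 in MPP8, 2.22 in PPHLN1 and 0.17 in untransduced cells. PSMB9 showed 0.00 in TASOR, 1.91 in TASOR2, 2.12 in MPP8, 2.47 in PPHLN1 and 0.26 in untransduced cells. ZNF528 showed 0.63 in TASOR, 1.77 in TASOR2, 1.79 in MPP8, 2.28 in PPHLN1 and 0.38 in untransduced cells. The genes were picked for this likeness, so the shared pattern is no result. In TASOR the counting interval lay above 0 for IFI6 (0.53 ± 0.39), SP110 (0.53 ± 0.33) and ZNF528 (0.63 ± 0.25), while that of GIMAP2 included 0. The PSMB9 model (chr6:32844136-32859585) overlaps TAP1 on the opposite strand, and the sources used here do not give whether strand was used in counting.

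Of the 4 of these genes with a RefSeq window, IFI6 held the ISRE core, with 3 matches, and the windows of PSMB9, SP110 and ZNF528 held none. When likeness was measured by Pearson's r over the same 6 means, which ignores the size of the change, the nearest were ZNF223, PHF14, ZNF284, ISG15 and TAP1, with 0 of 5 in common. ISG15 and TAP1 are also on the interferon list. By Pearson's r the 5 genes above ranked 11 (ZNF528), 12 (IFI6), 13 (PSMB9), 25 (SP110) and 30 (APOL3) among 15657 genes. By root mean square difference ZNF284 ranked 6, ZNF223 10, TAP1 19, ISG15 34 and PHF14 3172. Which genes rank first therefore depends on the measure, and 6 means leave many genes close together.

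**Figure D5:**
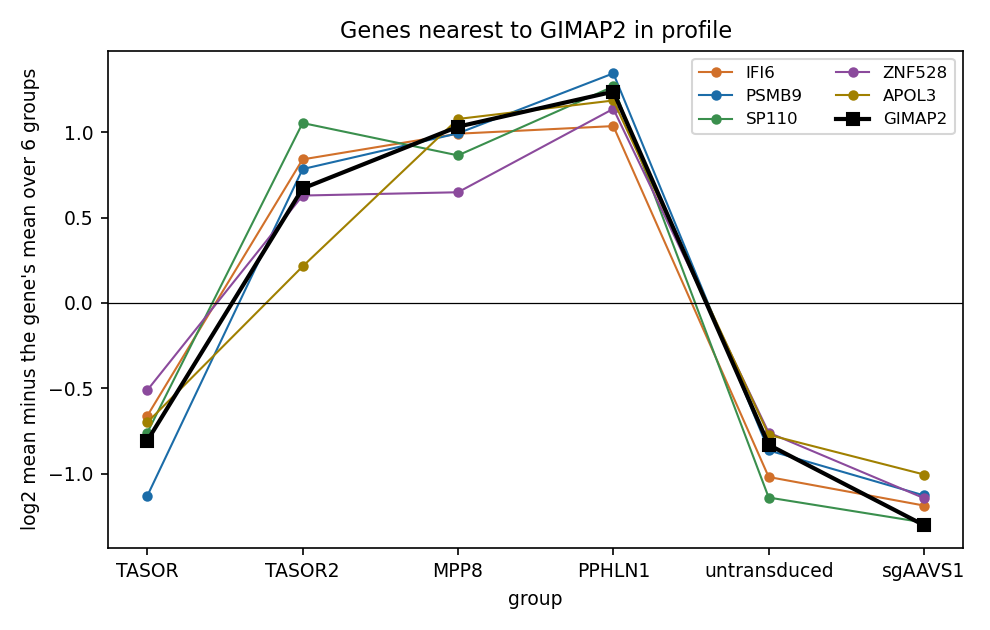
Log2 mean minus the gene's own mean over the 6 groups (y axis) for GIMAP2 (black squares) and the 5 genes nearest to it (coloured points) in each group (x axis); the groups have no order and the lines only join the points of a gene. The 5 genes were chosen for the closeness of these same 6 means to those of GIMAP2, so the likeness follows from the choice, and the spread among them is widest in TASOR2.

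The guides were checked on their own targets. The transcript left in its own knockdown, as a share of the sgAAVS1 level, was 6.56% of FAM208A (TASOR), 37.5% of FAM208B (TASOR2), 28.2% of MPHOSPH8 (MPP8) and 40.8% of PPHLN1, in each case the lowest of the 6 groups. The geometric mean depth per library was from 5857938 to 6945068 reads in the knockdowns, against 7406967 in untransduced cells and 6202797 in sgAAVS1. The TASOR2 mean was computed over 2 libraries where the labels list 3, and the sources used here do not give which 2 guides it holds.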

How the data were processed

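Total RNA of K562 cells was depleted of ribosomal RNA and made into strand-specific libraries, per the labels' protocols. Cutadapt and Bowtie2 were used and the build was hg38, per the submitters' processing notes; the sources used here do not give versions, read counter, annotation or the use of strand in counting. A single table with 35805 rows was deposited. Its untransduced column holds the authors' mean log2 RPM (reads scaled to a common library size). The other 5 deposited columns are quotients, treated as a score, of a group's mean log2 value over the untransduced one, as the values show, and were multiplied by the untransduced column to give log2 group means. Columns of values left unused were 0.

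Low means matched products of whole reads over libraries, with 0 reads written as 0.9 (tolerance 0.01), which gave the depth per library. Rows with a repeated symbol were dropped (87). The design planned limma on single libraries; the table holds group means only, so a rule of size took its place: a log2 difference of at least 1, a larger mean above 0 and a 95% Poisson counting interval without 0. Intervals and limits cover counting error only. The script was tested on simulated data without spread between libraries, which says nothing of how the rule behaves under such spread. The p-values that limma would give were not computed.

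Members and lists were chosen with earlier results of these data known. Named are all GIMAP genes, the 4 targeted genes, neighbours within 500 kb called in any comparison and the nearest on each side, up to 6 genes per list with the largest difference in PPHLN1, where GIMAP2 differed most, and the 5 nearest profiles; others were named after their values were seen. Profiles were compared among genes with all 6 means above -1. Septin symbols, shown as dates in the table, were matched by position to GENCODE 29. Transcript GC was available for 80.8% of the 16433 genes. Alternatives were another control, median centring, quantile normalization, a higher filter, a threshold of 0.58, a pseudocount of 1, a window of 1000000 bases and Pearson's r, and, added after the data were seen, removal of the GC trend. Python 3.11.15, numpy 2.4.6, pandas 2.3.3, scipy 1.17.1 and matplotlib 3.10.9 were used.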

Additional observations from a re-analysis of the deposited data

How the results depend on the processing

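The 75 alternative values of the GIMAP2 difference, over the comparisons with sgAAVS1 and between knockdowns, all had the same call, and 2 of them moved by more than the reach of the counting interval: with untransduced cells as control the difference was 1.86 in MPP8 and 2.07 in PPHLN1. The count of GIMAP genes called higher was the same in 75 of 75 alternative values. Counts over all genes moved more. Genes called higher than the control (320 in TASOR, 372 in TASOR2, 271 in MPP8, 473 in PPHLN1 and 227 in untransduced cells) became 210 in TASOR, 225 in TASOR2 and 256 in PPHLN1 with untransduced cells as control, and 207 in TASOR with median centring. Quantile normalization gave 134 in TASOR, 285 in PPHLN1 and 111 in untransduced cells. A filter 2 log2 units higher gave 75 in TASOR, 135 in TASOR2, 100 in MPP8, 175 in PPHLN1 and 19 in untransduced cells, and a pseudocount of 1 gave 61, 125, 96, 172 and 13 in the same order of groups. A threshold of 0.58 gave 888 in TASOR, 887 in TASOR2, 568 in MPP8, 1047 in PPHLN1 and 539 in untransduced cells. Removal of the GC trend, added after the data were seen, gave 153 in TASOR, 164 in TASOR2, 159 in MPP8 and 267 in PPHLN1. Interferon-stimulated genes called higher became 0 in TASOR, 11 in MPP8, 13 in PPHLN1 and 0 in untransduced cells with the higher filter, 2 in TASOR and 3 in untransduced cells at 0.58, and 13 in TASOR2 and 0 in untransduced cells with the pseudocount. Those in TASOR2 (21) became 14 with the higher filter and 14 with untransduced cells as control. Those in PPHLN1 (20) became 14 with the pseudocount. Other, smaller changes in these counts and in those over all genes are not listed. Within 1000000 bases of the cluster 35 of 54 other genes entered and 5 were called in some comparison, against 4 of 24 within 500 kb. Neighbours called higher in MPP8 (1) became 0 with median centring, the higher filter and the pseudocount, and those in PPHLN1 (1) became 0 with quantile normalization, the higher filter and the pseudocount. Pearson's r shared 0 of the 5 nearest genes, which ranked from 11 to 30 by that measure. Fewer genes enter under the higher filter; the cause of the other moves was not tested. No direction was reversed.

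No paired analysis was possible because the table holds group means without single libraries, and for the same reason no library was left out. Depth limits GIMAP6, GIMAP8, GIMAP1 and GIMAP5, each on 7 reads or fewer per library in the most even split.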
